A study of Mus musculus with 6 samples.

Results

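Cish and the 7 SOCS genes, Socs1 to Socs7, were followed through liver transcriptomes of mice in which the autophagic breakdown of lipid droplets, lipophagy, had been forced in hepatocytes. The 8 genes were found by their symbols among the 24346 symbols of the expression table, and every one of them had a value. The family was chosen because Cish had one of the most negative differences between lipophagy and control livers, so this difference is given below as a description, and no test of it is used as support for any of the 8 genes. Cish and Socs2 were the members with a feedback role in growth hormone signalling, Socs1 and Socs3 those with a feedback role in interferon and interleukin-6 signalling, and Socs4 to Socs7 the remaining members. The transcripts of Cish, Socs2, Socs3 and Socs1 were lower in every lipophagy liver than in any control liver, whereas those of Socs4, Socs5, Socs6 and Socs7 lay in overlapping ranges.

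Whole livers of C57BL/6 mice, C57BL/6J in the methods, were sequenced, 3 in each of 2 groups. All were males that had received CDAHFD, a high-fat diet that lacks choline and supplies amino acids in defined form, for 6 weeks from 8 weeks of age, then a single intravenous dose of adeno-associated virus serotype 8 (AAV8), and were returned to normal chow for the 2 weeks before the livers were taken. In the lipophagy group the virus carried LDTS-eLIR, a lipid droplet targeting sequence taken from perilipin 1 fused with an engineered LC3-interacting region from optineurin, together with mCherry. In the control group it carried LDTS-LIR mut, the same fusion with a mutated LC3-interacting region, so both groups received the diet, the virus, mCherry and the droplet-targeting sequence. The thyroxine-binding globulin promoter that drives the fusion is active in hepatocytes, while the libraries hold the RNA of all liver cells. Fewer cells of a type and less RNA per cell therefore cannot be told apart. The labels do not say in words that each library came from a separate mouse, and the spread given below is that between libraries.

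Cytokines and growth hormone act through receptors that have no kinase of their own and instead carry Janus kinases (JAKs), which phosphorylate the receptor and then the STAT transcription factors. STATs enter the nucleus and switch on target genes, among them Cish and several SOCS genes, whose short-lived proteins bind the phosphorylated receptor or the kinase through an SH2 domain. Through the SOCS box they recruit elongins and a cullin to mark bound proteins for degradation, and so close a negative feedback loop. In liver the loop is best known downstream of growth hormone, interleukin-6 and the interferons.

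The STAT-type palindrome TTCNNNGAA is the sequence through which these promoters are known to respond, and the stretches that hold it are shown because Cish and Socs3 had the largest differences of the family. In the RefSeq windows on GRCm38, which run from 250 bases before to 50 bases after each annotated start, 4 of the 8 members had an entry, namely Cish, Socs1, Socs3 and Socs4. The palindrome reads the same on both strands and was found in 2726 of the 32851 windows of this kind (8.3%), with 2 or more matches in 150 of them (0.457%). The window of Cish held 2 matches, TTCCTGGAA at chr9:107296659-107296667 and TTCTTGGAA at chr9:107296670-107296678, and that of Socs3 held 1, TTCTTAGAA at chr11:117969512-117969520. In the stretches, written 5′ to 3′ on the strand of the gene, capitals mark the matches.
Cish, chr9:107296654-107296683, plus strand: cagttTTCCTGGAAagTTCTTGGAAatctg
Socs3, chr11:117969501-117969530, minus strand: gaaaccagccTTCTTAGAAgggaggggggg
Socs1, chr16:10785597-10785626, minus strand: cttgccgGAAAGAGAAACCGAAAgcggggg
In Socs1 the capitals mark 2 overlapping matches to GAAANNGAAA, a repeat like that bound by interferon regulatory factors, which was searched on both strands only after the Socs1 window had been read. It occurred in 1131 of all windows (3.44%), with 2 or more matches in 74 (0.225%). The window of Socs4 matched neither pattern, and the spaced form TTCNNNNGAA, present in 2284 windows (6.95%), was found in none of the 4. Counted from the start that defines the window, with its first base as 1, the matches of Cish began at bases 1 and 12 and that of Socs3 at -154. The first match of Cish lay 51 bases and the second 40 bases upstream of the start of one annotated Cish transcript. They lay 633 and 644 bases downstream of the start of another. A match is a description of these letters and shows no binding.

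Values were deposited as FPKM, fragment numbers scaled for transcript length and library size, which is a level per length and so can be compared between genes. Depth was not given with the values; from the steps between the low FPKM values it was estimated at 23700000 to 34000000 fragments in the control livers and 22900000 to 24800000 fragments in the lipophagy livers. Spearman correlations between libraries across genes were 0.980 to 0.991, and no 2 libraries held identical values. Of all symbols, 11493 averaged 0.5 FPKM or more across all 6 livers and entered one limma fit on log2(FPKM + 1), with p-values adjusted by Benjamini-Hochberg over all of them. Each log2 difference below is lipophagy minus control on this scale, which understates the difference of low genes. All 8 members entered the fit, although Socs1 passed the 0.5 FPKM limit through the control group alone.

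Cish, which encodes a feedback inhibitor that STAT5 induces and that blocks STAT5 docking on cytokine receptors, measured 15.8, 10.2 and 13.1 FPKM in control livers 1 to 3 and 0.796, 0.934 and 1.40 FPKM in lipophagy livers 1 to 3. The lowest control liver was far above the highest lipophagy liver. The mean was 13 ± 2.81 FPKM (SD, n = 3) in control and 1.04 ± 0.319 (SD, n = 3) in lipophagy livers, a 12.5-fold lower level, and the log2 difference was -2.77 with a standard error of 0.165. In estimated fragments these values correspond to between 653 and 1200 per control library and between 51.0 and 94.0 per lipophagy library (exact Poisson 95% interval of the lowest library, 38.0 to 67.1, for counting error only). These estimates assume the longest annotated coding transcript, of 2850 bases, and a shorter one would give fewer fragments. Each lipophagy liver kept 6.11%, 7.17% or 10.8% of the control mean.

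Among all tested genes Cish had the second lowest log2 difference. The lowest was that of Mir703, at -5.34 with a standard error of 1.85, which was listed at 231, 405 and 152 FPKM in control livers and at 0, 0 and 216 FPKM in lipophagy livers, so its groups overlapped. Just after Cish came Foxq1, a forkhead transcription factor gene, at -2.34 with a standard error of 0.294. Foxq1 measured 18.5, 12 and 32.4 FPKM in control and 3.14, 2.54 and 3.44 FPKM in lipophagy livers, again without overlap.

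Socs2, the inhibitor best known for restraining growth hormone signalling, measured 9.31, 5.47 and 8.80 FPKM in control livers and 1.49, 4.02 and 2.35 FPKM in lipophagy livers. All lipophagy livers were below all control livers, but lipophagy liver 2 came close to control liver 2. Its means were 7.86 ± 2.09 and 2.62 ± 1.29 FPKM (SD, n = 3 each), and its log2 difference was -1.32 with a standard error of 0.265, the 17th lowest of all tested genes.

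Socs3, an inhibitor that binds the interleukin-6 receptor subunit gp130 and its Janus kinase, measured 8.78, 13.8 and 28.4 FPKM in control livers and 2.67, 3.75 and 4.31 FPKM in lipophagy livers. The control livers varied widely and the lipophagy livers little, with no overlap. Its means were 17 ± 10.2 and 3.58 ± 0.833 FPKM (SD, n = 3 each), a 4.74-fold lower level in lipophagy livers, and its log2 difference was -1.84 with a standard error of 0.352, the 10th lowest of all tested genes. The standard error was the largest of the 8 members.

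Socs1, an inhibitor of Janus kinases that limits interferon responses, was scarce, with 0.603, 0.797 and 1.17 FPKM in control livers and 0.20, 0.456 and 0.383 FPKM in lipophagy livers. The groups did not overlap, although the highest lipophagy liver was not far below the lowest control liver. Its mean was 0.857 ± 0.288 FPKM in control and 0.347 ± 0.132 FPKM in lipophagy livers (SD, n = 3 each), and its log2 difference was -0.46 with a standard error of 0.128, ranked 200th. The 2.47-fold ratio of means exceeds what this log2 difference states because the added 1 FPKM outweighs values so low. The lowest library, lipophagy liver 1, held an estimated 13.1 fragments of Socs1, for which the exact Poisson 95% interval was 6.92 to 22.2 and covers counting error only.

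**Figure D1:**
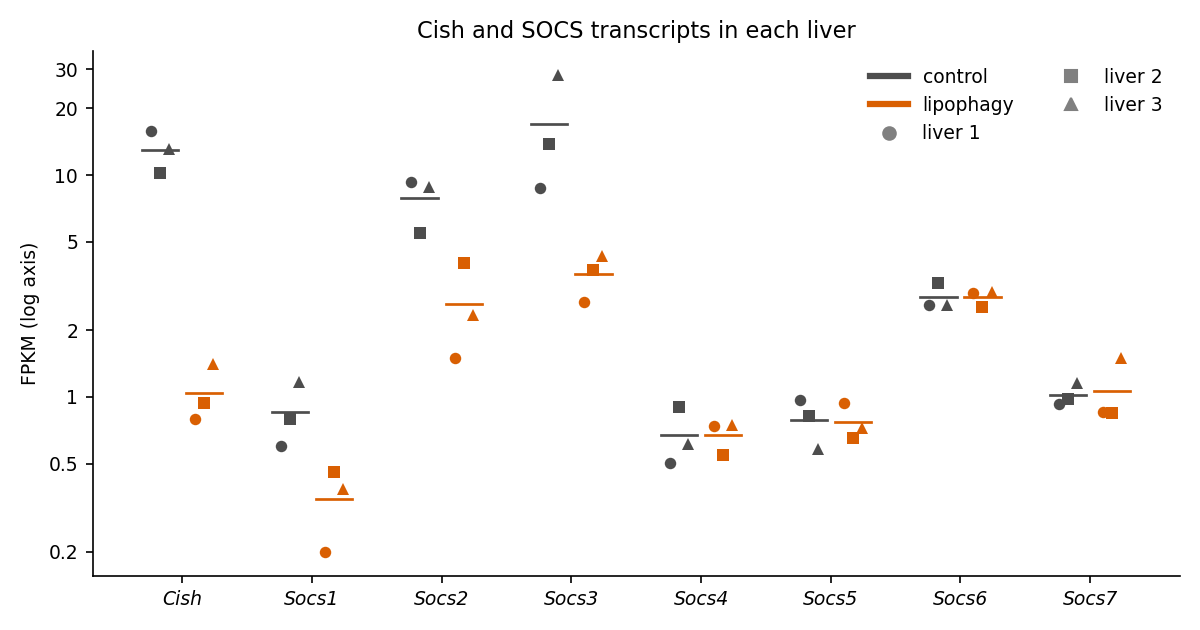
FPKM on a log axis for the 8 genes in each of the 6 livers, with control in grey and lipophagy in orange, a marker shape for each liver number and a bar at each group mean. Cish, Socs1, Socs2 and Socs3 have every lipophagy liver below every control liver, and the other 4 genes overlap.

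The other members have long amino-terminal regions, and Socs4 and Socs5 are known for acting on the epidermal growth factor receptor, Socs6 and Socs7 for binding insulin signalling proteins. Socs4 measured 0.503, 0.902 and 0.616 FPKM in control and 0.736, 0.545 and 0.745 FPKM in lipophagy livers. Socs5 measured 0.968, 0.816 and 0.584 FPKM in control and 0.943, 0.652 and 0.725 FPKM in lipophagy livers. In both genes the livers of the groups were interleaved.

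Socs6 was the most abundant of the 4, with 2.60, 3.26 and 2.61 FPKM in control and 2.93, 2.55 and 2.96 FPKM in lipophagy livers. Socs7 measured 0.925, 0.977 and 1.15 FPKM in control and 0.854, 0.842 and 1.49 FPKM in lipophagy livers, where lipophagy liver 3 was the highest of all 6. Neither gene separated the groups. The 95% intervals of the log2 difference ran from -0.24 to 0.25 for Socs4, from -0.26 to 0.24 for Socs5, from -0.22 to 0.22 for Socs6 and from -0.28 to 0.31 for Socs7. They describe the uncertainty of the mean difference and are not read as a test.

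In 4 of 8 members every lipophagy liver was below every control liver, against 10.8% of the 11493 tested genes, and in 0 of 8 was every lipophagy liver above, against 15.4%. The 4 include Socs1, which entered the fit only through its control values. Since the family was picked on this contrast, nothing is read from these counts. An adjusted p below 0.05 was reached by 3 genes of the whole fit (0.0261%), all of them lower in lipophagy livers. This number covers the whole fit, members included, and is not read as a test of any member. The called genes outside the family were Foxa1, a hepatocyte forkhead factor (log2 difference -0.78, adjusted p = 0.046 by limma), and Phlda1, a pleckstrin homology-like protein (-2.15, adjusted p = 0.0198 by limma). At an unadjusted p below 0.05, 7.97% of tested genes were lower and 11.5% higher. These shares depend on the livers used, with 602 lower genes without control liver 3 and 800 higher genes without lipophagy liver 1. In genes this split was 916 lower and 1327 higher, and became 899 and 745 after quantile normalization, which left the log2 differences of Cish, Socs2 and Socs3 at -2.77, -1.31 and -1.85.

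**Figure D2:**
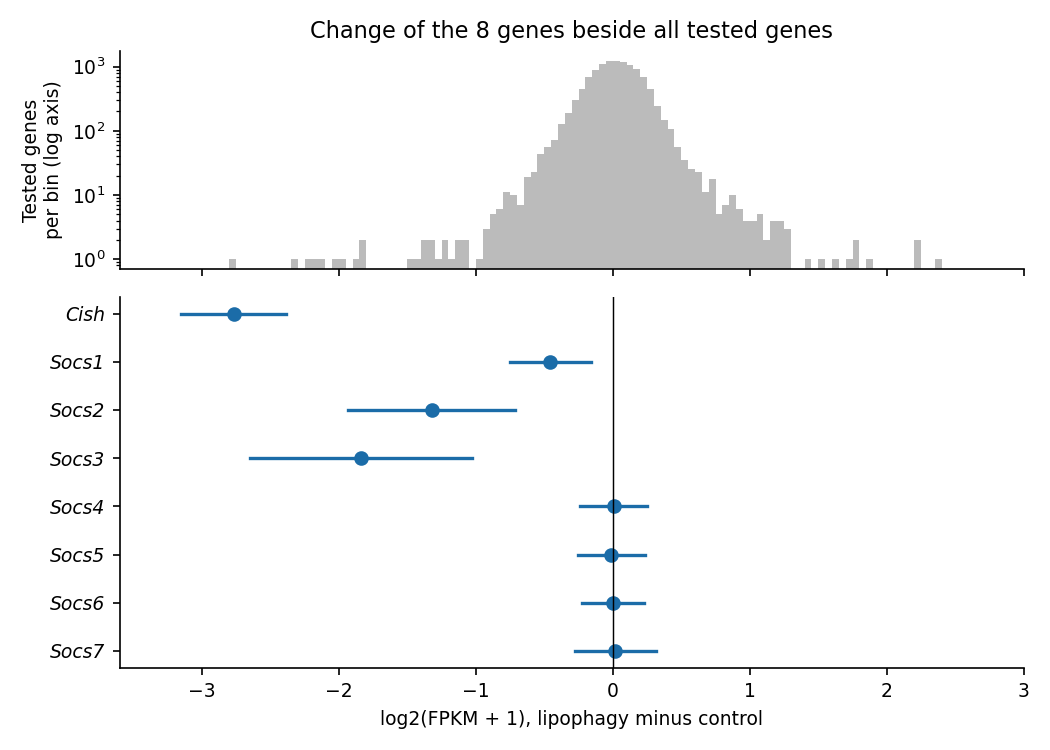
Upper panel, number of tested genes per bin of log2 difference, 0.05 wide, on a log axis. Lower panel, log2 difference (points) and 95% interval (lines) of the 8 genes on the scale of log2(FPKM + 1), lipophagy minus control. Cish lies at -2.77 at the far left, where few genes remain, and Socs4 to Socs7 lie at 0; 1 gene beyond each end of the axis, Mir703 at -5.34 among them, is not drawn.

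The order of levels within the family differed between the groups. In control livers the order by mean was Socs3, Cish, Socs2, Socs6, Socs7, Socs1, Socs5 and Socs4. Cish lay above Socs2, Socs2 above Socs6 and Socs6 above Socs7 without overlap, but the wide range of Socs3 reached into those of both Cish and Socs2, and in control liver 1 Socs2 was above Socs3. From Socs7 to Socs4 neighbours overlapped. In lipophagy livers Socs3, Socs6, Socs2, Socs7, Cish, Socs5 and Socs4 formed one sequence in which neighbours overlapped, and Socs1 lay below Socs4 without overlap. By mean level Cish took the second place in control and the fifth in lipophagy livers.

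Summed over the 8 genes, the family amounted to 39.5, 36.2 and 56.4 FPKM in control livers and 10.6, 13.8 and 14.4 FPKM in lipophagy livers. Cish, Socs2 and Socs3 made up 85.8%, 81.3% and 89.1% of the sum in control and 46.7%, 63.3% and 56.1% in lipophagy livers. The sum of the other 5 genes was 5.60, 6.75 and 6.13 FPKM in control and 5.66, 5.05 and 6.31 FPKM in lipophagy livers, in overlapping ranges. The summed level of the family was therefore lower through a few members, and the rest made up a larger share of what remained.

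**Figure D3:**
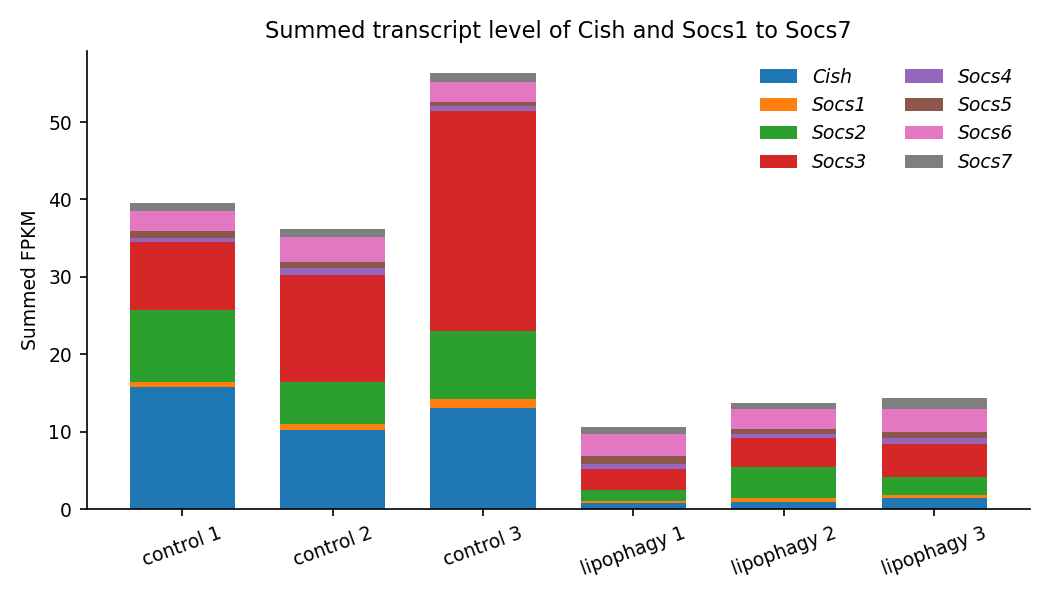
Stacked bars of FPKM for the 8 genes in each liver, starting at 0. The control bars reach 36.2 to 56.4 FPKM and the lipophagy bars 10.6 to 14.4 FPKM, with the sections of Cish, Socs2 and Socs3 making up most of the gap.

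The members with lower levels did not keep their proportions. The ratio of Cish to Socs2 FPKM was 1.7, 1.86 and 1.48 in control and 0.534, 0.232 and 0.599 in lipophagy livers, so Cish changed place with Socs2 in every lipophagy liver. The ratio of Cish to Socs3 was 1.8, 0.740 and 0.460 in control and 0.298, 0.249 and 0.326 in lipophagy livers, also without overlap but with a wide control range. Relative to each gene's own control mean, lipophagy livers 1 to 3 held 19%, 51.1% and 29.9% for Socs2, 15.7%, 22.1% and 25.4% for Socs3, and 23.4%, 53.3% and 44.7% for Socs1, each above the value of the same liver for Cish.

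**Figure D4:**
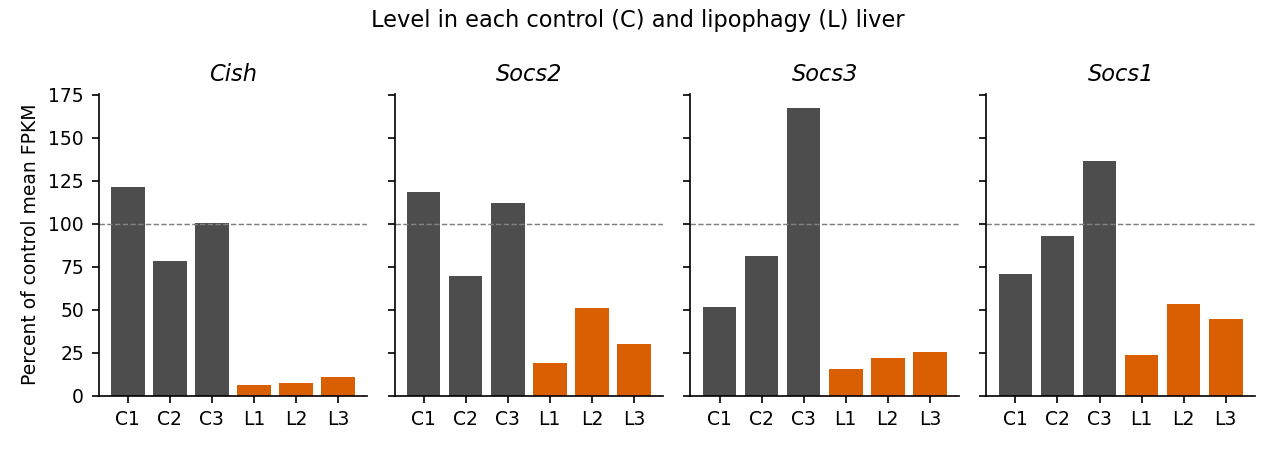
FPKM in each control (C) and lipophagy (L) liver as a percentage of the control mean of the gene, with bars from 0 and a dashed line at 100%. Cish stays between 6.11% and 10.8% in the lipophagy livers, while Socs2 and Socs1 reach 51.1% and 53.3% in lipophagy liver 2.

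The livers of one group also differed among themselves. In control livers Cish and Socs2 had the same order, highest in liver 1 and lowest in liver 2, whereas Socs1 and Socs3 were both highest in liver 3 and lowest in liver 1. In lipophagy livers the orders went together differently, with Cish and Socs3 highest in liver 3 and Socs1 and Socs2 highest in liver 2, all 4 being lowest in liver 1. Pearson's r of the deviations from the group means over the 6 livers ranged over the pairs of members from -0.997 for Socs1 with Socs5 to 0.968 for Socs4 with Socs6. It was 0.941 for Socs1 with Socs3, 0.518 for Cish with Socs2 and 0.505 for Cish with Socs7, but -0.0622 for Cish with Socs3 and -0.0456 for Cish with Socs1. The coefficient of variation among control livers was 60.1% for Socs3 and between 11.7% and 33.6% for the other members. The correlations describe 6 points that share libraries.

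Within groups, Socs2 and Socs3 varied more than most genes of their level. Their pooled within-group SD on the log2 scale, 0.444 and 0.599, was above that of 98.1% and 98.8% of the 1000 tested genes nearest to them in mean level, and that of Cish, 0.26, was above 93.9%. Socs6 varied least, with an SD of 0.116, above 45.4% of its neighbours.

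Gene structure is given as background to the members. In the GENCODE M21 models on GRCm38, the open reading frames of Cish, Socs1, Socs2 and Socs3 held 257, 212, 198 and 225 codons, and those of Socs4 to Socs7 held 436, 536, 533 and 579. Exon numbers were 3, 2, 3 and 2 for the former and 2, 3, 3 and 10 for the latter, in the same order. Cish lies on chromosome 9 from 107296026 to 107301987 on the plus strand. Socs1 lies on chromosome 16 (10782240 to 10785536), Socs2 on chromosome 10 (95411490 to 95416857) and Socs3 on chromosome 11 (117966079 to 117969186), all on the minus strand. The exons of Cish overlap antisense exons of the gene models Gm17040 and Gm17041, neither of which was in the table, and the sources do not say whether fragments were assigned by strand, so reads of Cish and of these models cannot be told apart.

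The 3′ untranslated regions were also searched for ATTTA, the core of AU-rich elements, which are known in short-lived transcripts. Per kilobase, Cish had 2.76, Socs3 2.71, Socs2 1.72 and Socs1 0 such pentamers, against a median of 1.29 over the 10059 tested genes with at least 100 bases of 3′ untranslated region. Socs4, Socs5, Socs6 and Socs7 had 3.28, 1.54, 2.49 and 0.964. The densities of the short and the long members overlapped.

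The other genes of the pathway are described from ligand to target, and limma gave no adjusted p below 0.05 for any tested gene of these lists. The median log2 difference over all tested genes was 0.0196. Of 21 ligands of JAK-linked receptors only 4 reached 0.5 FPKM, and Csf3, Epo, Gh, Il13, Il22, Lep and Prl were listed at 0 in all 6 livers. The median of the 4 was -0.23, with 2 lower and 0 higher at an unadjusted p below 0.05, against 7.97% and 11.5% of all tested genes. Clcf1, a cytokine of the interleukin-6 family, measured 1.99, 1.90 and 2.28 FPKM in control and 1.34, 0.828 and 0.932 FPKM in lipophagy livers (log2 difference -0.59, adjusted p = 0.116 by limma). Its groups did not overlap. The highest value among the tested ligands was that of Ctf1, another member of this cytokine family, with a difference of 0.00042.

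Of 23 receptors tested, 6 were lower and 2 higher at an unadjusted p below 0.05, against 7.97% and 11.5% of all tested genes, and the median difference was -0.079. The 23 include Insr (-0.12), the insulin receptor, which has a kinase of its own. The share that was higher was near that of all genes. Il6ra, the interleukin-6 binding subunit, measured 2.09, 2.31 and 2.71 FPKM in control and 2.91, 4.31 and 6.12 FPKM in lipophagy livers (0.65, adjusted p = 0.17 by limma). Il2rg, the common gamma chain of lymphocyte cytokine receptors, had a difference of -0.35 (adjusted p = 0.2 by limma). Ghr, the growth hormone receptor, measured 162, 153 and 137 FPKM in control and 198, 195 and 215 FPKM in lipophagy livers (0.43, and 0.25 after quantile normalization, adjusted p = 0.131 by limma). For Ghr and Il6ra every lipophagy liver was above every control liver, opposite to Socs2 and Socs3, without passing the adjustment, and Ghr was chosen after its values were seen.

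The 4 Janus kinases, which start the signal, had a median difference of -0.031. Jak1 (0.017, and -0.062 after quantile normalization) and Jak2 (-0.079, and -0.027 without control liver 1) overlapped between groups. In every lipophagy liver Tyk2 (0.094) was above all control livers, as were 15.4% of all tested genes. Jak3 (-0.24, -0.16 without control liver 3, adjusted p = 0.25 by limma) was below, as were 10.8%. At an unadjusted p below 0.05, 1 of the 4 kinases, Jak3, was lower and 0 higher, against 7.97% and 11.5% of all tested genes. Of the 5 STAT factors read here, whose median was -0.13, 1 was lower and 0 higher at this cut, against the same shares. It was Stat2 (-0.26), a mediator of interferon signals, with an adjusted p = 0.243 by limma. Stat3 (-0.13), Stat5a (-0.16), Stat5b (0.016) and Stat6 (0.0059) overlapped between groups, and the last 2 were -0.0088 and -0.073 after quantile normalization. Stat3 was -0.21 after quantile normalization and -0.047 without control liver 1, and Stat5a was -0.064 without control liver 2. Messenger RNA levels say nothing of STAT phosphorylation, which was not analysed here.

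Of 10 other inhibitors of the pathway, phosphatases, PIAS proteins and an adaptor, 1 was lower and 0 higher at an unadjusted p below 0.05, against 7.97% and 11.5% of all tested genes. Their median was -0.089, and it was -0.058 without control liver 1 and -0.115 without control liver 3. The lower one was Ptprc, which encodes the leukocyte phosphatase CD45 (-0.28, adjusted p = 0.196 by limma). The others ranged up to 0.14 for Pias4, a SUMO ligase, which was 0.034 without control liver 1 and 0.26 without control liver 3. The 10 elongin, cullin and neddylation genes with which SOCS proteins build their ubiquitin ligase all had positive differences, with a median of 0.089, but after quantile normalization 6 of 10 were negative with a median of -0.026, and without control liver 1 the median was 0.0205. The largest among them was that of Ube2f, a NEDD8-conjugating enzyme (0.28, and 0.17 after quantile normalization, adjusted p = 0.186 by limma). Of 13 other genes with a SOCS box, 1 was lower and 0 higher at an unadjusted p below 0.05, against 7.97% and 11.5% of all tested genes, with a median of -0.0043, and Wsb1, at 10.9, 6.99 and 7.38 FPKM in control and 5.91, 5.41 and 6.75 FPKM in lipophagy livers, was the lowest (-0.40, -0.22 without control liver 1, adjusted p = 0.223 by limma) and Asb3 the highest (0.15, adjusted p = 0.365 by limma).

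Genes that STATs are known to regulate were read next. Of 15 genes linked to growth hormone and STAT5, 1 was lower and 5 higher at an unadjusted p below 0.05, against 7.97% and 11.5% of all tested genes, with a median of 0.21 that became 0.059 after quantile normalization, 0.0961 without control liver 1 and 0.372 without lipophagy liver 1. Bcl6, a repressor that growth hormone lowers through STAT5, measured 2.05, 7.13 and 5.24 FPKM in control and 6.42, 16.6 and 13.9 FPKM in lipophagy livers (1.22, adjusted p = 0.192 by limma), and its difference was 0.81 without control liver 1. Onecut1, a factor that growth hormone raises, measured 4.24, 0.983 and 0.934 FPKM in control and 0.531, 0.341 and 0.653 FPKM in lipophagy livers (-0.86, adjusted p = 0.24 by limma), a difference that was -0.38 without control liver 1. Bcl6 overlapped between the groups and Onecut1 did not. Igf1, the main liver product of this axis, measured 144, 140 and 151 FPKM in control and 163, 136 and 168 FPKM in lipophagy livers (0.095, and -0.073 after quantile normalization, adjusted p = 0.613 by limma), chosen after its values were seen.

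Of 25 genes linked to interleukin-6 and STAT3, 7 were lower and 3 higher at an unadjusted p below 0.05, against 7.97% and 11.5% of all tested genes, with a median of -0.17 that became -0.288 after quantile normalization, -0.252 without control liver 1 and -0.111 without control liver 3. The share that was higher was near that of all genes. Lcn2, an acute-phase siderophore-binding protein, measured 133, 169 and 210 FPKM in control and 78.2, 93.6 and 122 FPKM in lipophagy livers (-0.79, adjusted p = 0.139 by limma), while Fgb, a fibrinogen chain, was at 0.29 (0.16 after quantile normalization, adjusted p = 0.248 by limma). Of 19 genes that interferons are known to induce, 10 were lower and 0 higher at an unadjusted p below 0.05, against 7.97% and 11.5% of all tested genes, with a median of -0.28. Oasl2, an interferon-induced gene, had the lowest value (-0.57, adjusted p = 0.103 by limma) and Cxcl9, a chemokine, the highest (0.058, and -0.060 without lipophagy liver 3).

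Immediate early genes, which cells switch on within minutes of a stimulus and during tissue handling, had a median of -0.37. Of 18 tested, 11 were lower and 1 higher at an unadjusted p below 0.05, against 7.97% and 11.5% of all tested genes, and 16 had a negative difference (14 after quantile normalization). Myc measured 11.6, 6.14 and 15.1 FPKM in control and 1.63, 2.11 and 1.20 FPKM in lipophagy livers (-2.11, adjusted p = 0.071 by limma), and Dusp1, a phosphatase, was highest at 0.41 through lipophagy liver 3 alone (29.6 FPKM against 5.81 and 6.90). Most of these genes thus lay on the same side as Cish, Socs2, Socs3 and Socs1, and their part in that result was not tested.

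**Figure D5:**
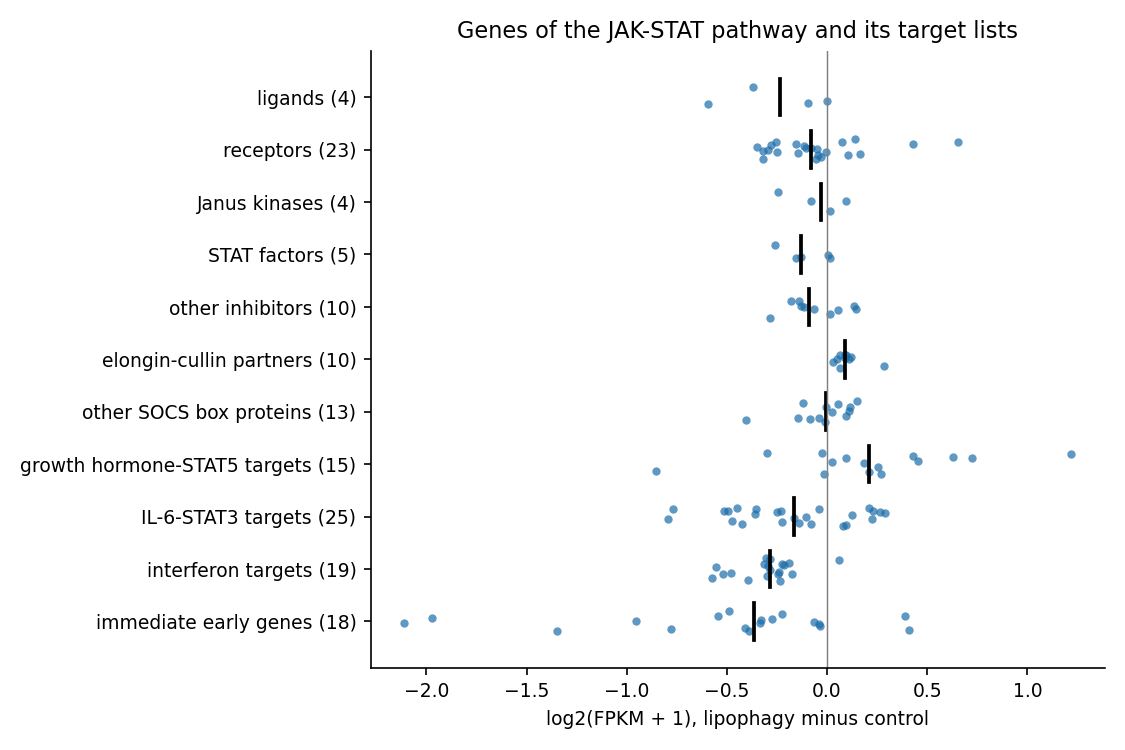
Log2 difference on the scale of log2(FPKM + 1), lipophagy minus control, of each tested gene (points, spread vertically at random) in 11 lists, with a black bar at the median and the number of tested genes in brackets. Medians run from -0.37 for immediate early genes to 0.21 for growth hormone and STAT5 targets, and most points lie within 1 unit of 0.

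Markers of liver cell types were set beside these values, and limma gave no adjusted p below 0.05 for any of them. The 16 hepatocyte markers summed to 84300 to 91800 FPKM in control and 97400 to 126000 FPKM in lipophagy livers, with a median difference of 0.17 that was -0.025 after quantile normalization, and 0 were lower and 4 higher at an unadjusted p below 0.05. The 12 stellate cell markers summed to 87.6 to 99.5 and 70.2 to 85.8 FPKM, with 6 of 12 lower and 0 higher at an unadjusted p below 0.05, against 7.97% and 11.5% of all tested genes. The lower ones were Pdgfrb, Col1a1, Col1a2, Col3a1, Acta2 and Rgs5, while Lrat, Des, Reln, Hgf, Ngfr and Ecm1 overlapped between the groups. The sums of both lists did not overlap between the groups, and neither did the summed FPKM of all genes, which was 622696 to 681138 in control and 709993 to 782392 in lipophagy livers. The summed macrophage markers (18 in the table) overlapped, at 939 to 1200 and 903 to 1080 FPKM, but 13 of the 17 tested had a negative difference, 4 were lower and 1 higher at an unadjusted p below 0.05, and their median was -0.21 (-0.30 after quantile normalization, -0.137 without control liver 3). The 15 lymphocyte markers in the table summed to 8.49 to 12.9 and 8.62 to 9.26 FPKM, with 1 of 6 tested lower and 0 higher.

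Neutrophil markers (9 in the table) summed to 19.2 to 33.4 and 16.9 to 20 FPKM, sinusoidal endothelial markers (12) to 42.0 to 51.9 and 45.9 to 71.1 FPKM, and bile duct markers (8) to 142 to 252 and 96.6 to 202 FPKM, in that order of control and lipophagy. These ranges overlapped. At an unadjusted p below 0.05, 2 of 3 tested neutrophil markers were lower, against 7.97% of all tested genes (11.5% were higher). Of the 7 tested bile duct markers, all with negative differences (5 after quantile normalization), none was. The bile duct median was -0.46, and it was -0.317 without lipophagy liver 1 and -0.698 without lipophagy liver 2. Of the 12 endothelial markers 0 were lower or higher. No marker of any of the 7 lists was at 0 in all livers. The part of these shifts in the levels of Cish and the SOCS genes was not tested.

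The 5 genes whose pattern over the 6 livers was most like that of Cish were Foxa1, Dab2ip, Nid1, Ndor1 and Armc10, with Pearson's r of 0.999, 0.993, 0.990, 0.989 and 0.988 on the log2 scale. Foxa1 measured 6.19, 5.40 and 6.08 FPKM in control and 2.85, 2.97 and 3.17 FPKM in lipophagy livers, in the same order of livers within each group as Cish. For the deviations from the group means r was 0.956 for Foxa1, 0.927 for Ndor1, 0.721 for Dab2ip, 0.345 for Armc10 and 0.339 for Nid1, so the latter 2 were alike mainly in the difference between groups. Among the members, r with Cish over the 6 livers was 0.904 for Socs2, 0.868 for Socs3 and 0.819 for Socs1, and between -0.116 and 0.046 for the other 4. These values describe 6 points that share their libraries and groups.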

How the data were processed

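Poly(A) RNA of 6 mouse livers was sequenced in 100-base paired-end reads from a stranded kit. The authors deposited FPKM per gene symbol, and the submitters' processing notes list TopHat2 2.0.13, Bowtie2 2.2.3, SAMtools 0.1.19, Cufflinks 2.2.1 and the mm10 build. The annotation and the use of strand in counting were not given in the sources used here. The labels and the methods name different sequencers. The table ties symbols to values only, and 27 symbols had been turned into dates.

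Groups came from the sample titles and labels. Genes that averaged 0.5 FPKM or more were transformed to log2(FPKM + 1) and fitted with limma 3.58.1 (R 4.3.3) with an intensity trend, two-sided, with Benjamini-Hochberg adjustment at 0.05. The fit was tested on simulated data. No count model was used because the values are FPKM. Depth was estimated from whole-number steps of low FPKM values over 512 genes, with a fragment length of 150 bases assumed. Fragments of each member were estimated for its longest annotated coding transcript. Between 49.1% and 86.6% of the low genes compared lay on such steps within a tolerance of 0.001, so estimated fragments are approximate. Pandas 2.3.3 and scipy 1.17.1 were used for the remaining values.

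Named genes were the 8 members, the JAK, STAT, inhibitor and elongin-cullin genes by value or range, the highest and lowest gene of every other pathway list, the 5 genes most like Cish and all genes with an adjusted p below 0.05. Ghr and Insr, as receptors, Igf1, Mir703, Foxq1 and all cell type markers were named outside this rule, after their values were seen. The members and lists were chosen with earlier results of these data known. Of the pathway lists, 1 gene is not reported here and was left out of their counts and medians. Alternatives covered the pseudocount, filter, scaling, variance model, liver weights, replicate number and each liver left out.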

Additional observations from a re-analysis of the deposited data

How the results depend on the processing

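The log2 difference of Cish was -2.77 and stayed negative in every alternative tried, at -3.53 with a pseudocount of 0.1 FPKM, -3.13 with 0.5 FPKM, and between -2.92 and -2.63 with 1 liver left out. Over the alternatives Socs2 ranged from -1.62 to -1.05, Socs3 from -2.20 to -1.41 and Socs1 from -1.10 to -0.339, while Socs4 to Socs7 stayed within -0.125 and 0.102. Socs4 to Socs7, near 0 throughout, took both signs, and Cish, Socs1, Socs2 and Socs3 were negative in all of them. In Cish, Socs1, Socs2 and Socs3 the groups did not overlap, so leaving out a liver or changing the pseudocount could not turn the sign. Their constant sign is therefore no support. The number of genes with an adjusted p below 0.05 was 3, 1 without the filter, 43 with the replicate block and 39 with liver quality weights. It ranged from 1 to 11 with 1 liver left out: 2 without control liver 1, 7 without control 2, 1 without control 3, 2 without lipophagy liver 1, 5 without lipophagy 2 and 11 without lipophagy 3. The cause was not tested. The replicate numbers were not shown to pair the livers, since the deviations of same-numbered livers correlated at 0.25, 0.234 and -0.0565 and control liver 3 correlated best with lipophagy liver 2. Of 285 list medians under the alternatives, 23 moved by more than the spread between livers. Among these, with a pseudocount of 0.1 FPKM, the median was -0.556 for immediate early genes and -0.373 for ligands. With 1 liver left out, the median of the STAT factors ranged from -0.136 to -0.0468 (without control liver 1), that of the receptors from -0.162 (without lipophagy liver 3) to -0.0622, and that of the Janus kinases from -0.0611 to 0.0118 (without control liver 1), while immediate early genes (-0.424 to -0.316) and interferon-induced genes (-0.367 to -0.237) stayed negative. Without lipophagy liver 1 the difference of Il2rg was -0.23 and that of Stat2 -0.16, and without lipophagy liver 3 that of Dusp1 was -0.28. With a filter at 1 FPKM, Socs1, Socs4 and Socs5 were not tested. With 3 libraries a group, an exact permutation test of a single value cannot go below 0.1, and the estimated depth limits Socs1 in particular.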
